A study of Homo sapiens with 3 samples.

Results

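The genes described here encode the ligands and receptors of axon guidance: semaphorins with their plexin and neuropilin receptors, ephrins with their Eph receptors, netrins with UNC5 receptors, and slits with ROBO receptors. They were taken by gene symbol from the deposited table, keeping protein-coding rows, which gave 66 of 29960 genes. A further row, SEMA3B, had a matching symbol but was listed as a processed transcript and was left out. RNA of 5637, an established human bladder cancer line, was sequenced from the parental line (labelled genotype WT) and from a gemcitabine-resistant derivative, both labelled untreated. The study names axon guidance among the pathways changed in resistance, and the question here was which of these ligands and receptors differed between both forms of the line. The values come from 3 labelled libraries, parental 1, resistant 1 and resistant 2, so that the parental group had 1 library and the resistant group 2. By the study's methods each library came from a single-cell clone, so a library stands for a clone and not for the whole line. The labels describe an acute treatment with gemcitabine, whereas the methods describe repeated exposure to rising doses with recovery between them and later culture without the drug, so the sources differ on how the resistant line was made. All cells were grown in RPMI medium with serum.

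These families were named for their part in steering growing nerve fibres, but epithelial cells use them as well. Semaphorins bind plexins, and the secreted class 3 members mostly need a neuropilin as co-receptor. Ephrins are held on the membrane and signal in both directions when they meet an Eph receptor on a neighbouring cell, which sorts cells and keeps boundaries in epithelia. Netrins attract or repel through the receptors DCC and UNC5, slits repel through ROBO receptors, and UNC5 receptors are also known as dependence receptors that can signal cell death without their ligand.

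Between 14475531 and 17461941 reads were counted on genes per library, and reads were found on 21438 to 23570 genes, most of them in resistant 2. The epithelial identity of the line was visible in KRT19, with 58713 to 83089 reads, and in EPCAM, with 4017 to 5519. Of the listed uroplakins, UPK3A had no read in any library and UPK2 had 3 to 9. UPK1B had 74 reads in parental 1 and 0 in both resistant clones. Of 6 listed endothelial and 6 listed leukocyte markers, 5 each were in the deposited table. None of these had over 20 reads in any library, TEK had no read at all, and PTPRC had 2 to 4. Of 8 listed fibroblast markers 7 were in the deposited table, among which LUM had no read, whereas COL1A1 had 1063 to 1591. The summed level of the fibroblast list was 148.0 to 173.0 CPM. Of 10 listed neuronal and glial markers 8 were in the deposited table, among which ELAVL3 had 0 to 3 reads, MAP2 295 to 415 and MBP 1496 to 1995. The list summed to 125.6 to 148.4 CPM, and most of this sum was MBP, at 104.6 to 122.1 CPM. The listed urothelial and epithelial genes summed to 10258 CPM in parental 1, 7487 in resistant 1 and 7675 in resistant 2. Of 12 such genes tested, KRT5, a basal keratin, and UPK1B, a uroplakin, were called lower (edgeR quasi-likelihood test, adjusted p of 0.0022 and 0.018, a call made for 0.391% of all tested genes). No gene of the list was called higher (0.135% of all). With KRT17 and KRT13, 4 of the 12 were at least 2-fold lower in both resistant clones (3.03% of all), and none was at least 2-fold higher (4.4%). Whether this difference in keratins has a part in the values below was not tested, and in bulk RNA fewer cells with a transcript and less of it per cell cannot be told apart.

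The 5′ flanks of EPHB3, UNC5A and SLIT2 are shown because these genes were among the 6 tested genes at least 2-fold from the parental clone in both resistant clones, EPHB3 and UNC5A below it and SLIT2 above it. No 5′ flank was available for SEMA6A and UNC5B, and those of SEMA6D are described below. Each run is the 250 bases before the RefSeq transcript start on the plus strand of GRCh38.p14, with matches to the GC box GGGCGG, or its reverse complement CCGCCC, in capitals. The windows are chr3:184561535-184561784 for EPHB3, chr5:176810309-176810558 for UNC5A and chr4:20251655-20251904 for SLIT2.
EPHB3: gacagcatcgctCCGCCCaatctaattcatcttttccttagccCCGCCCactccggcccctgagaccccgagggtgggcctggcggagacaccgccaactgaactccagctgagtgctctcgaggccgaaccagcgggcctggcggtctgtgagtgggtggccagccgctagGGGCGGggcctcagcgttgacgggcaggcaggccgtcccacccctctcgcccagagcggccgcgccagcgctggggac
UNC5A: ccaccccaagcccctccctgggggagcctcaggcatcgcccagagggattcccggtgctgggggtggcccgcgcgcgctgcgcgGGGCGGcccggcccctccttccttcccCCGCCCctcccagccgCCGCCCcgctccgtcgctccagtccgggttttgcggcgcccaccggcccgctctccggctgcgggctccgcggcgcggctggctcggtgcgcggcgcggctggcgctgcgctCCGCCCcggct
SLIT2: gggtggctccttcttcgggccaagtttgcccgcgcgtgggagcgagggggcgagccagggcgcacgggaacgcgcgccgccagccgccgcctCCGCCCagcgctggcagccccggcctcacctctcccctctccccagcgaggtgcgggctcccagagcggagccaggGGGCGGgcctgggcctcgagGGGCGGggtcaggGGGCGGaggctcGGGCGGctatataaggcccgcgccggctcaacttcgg

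The EPHB3 window held 3 GC boxes, the UNC5A window 4 and the SLIT2 window 5, and their GC content was 70.0%, 81.2% and 77.2%, against a median of 58.0% over 35116 RefSeq windows of the same length. SEMA6D, another of the 6 genes, had windows at 3 alternative starts, not printed, with 0, 0 and 2 GC boxes and a GC content of 53.6%, 72.0% and 74.8%. The GC box was found in 42.6% of the 35116 windows. The table held 84 windows for 56 of the 66 genes, several of them from alternative starts of the same gene, and 71.4% of these windows had a GC box. The TATA box TATAAA, with TTTATA on the other strand, was found in 3 of the 84 windows and in 10.7% of all windows. The study names OVOL1, TBX2 and SOX15 as regulators, so 3 short motifs of their families were searched on both strands. The letters CCGTTA of OVO-type factors and GGTGTGA of T-box factors had no match in the 84 windows, against 2.45% and 2.76% of all windows. The SOX letters AACAAT matched in 2 of the 84 windows and in 8.98% of all. At shares as low as 2.45% and 2.76%, few matches were to be expected among 84 windows. A match is only a match of letters, and the absence of one concerns these 250 bases alone. The study's own list of OVOL1 and OVOL2 targets includes some of the 66 genes, among them EPHA1, EPHA2, EPHA10, EFNA3 and EFNA4.

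Levels between genes are compared in FPKM (fragments scaled to gene length and library size), as the authors deposited it. Of the 66 genes, 52 had a mean of at least 10 reads over the 3 libraries and entered the test. The other 14 had 0 to 11 reads in any library and no stated fold, and 8 of them never passed 3 reads. These were EPHA3, EPHA5, EPHA8, EPHA10, EPHB1, SEMA3E, SEMA3G, SEMA5B, PLXNA4, NTN5, ROBO2, ROBO4, UNC5C and UNC5D. Of the 52, 23 had a mean of at least 10 FPKM, 17 lay between 1 and 10, and 12 were under 1. Eph receptors contributed the most, 34.2% of the summed FPKM of all 66 genes in parental 1, 45.0% in resistant 1 and 40.3% in resistant 2. Plexins held 22.3%, 17.5% and 16.9%, semaphorins 19.2%, 18.9% and 19.9%, and ephrins 14.6%, 11.7% and 14.6%. Slits held at most 0.205% in any library, and ROBO receptors at most 0.838%.

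**Figure D1:**
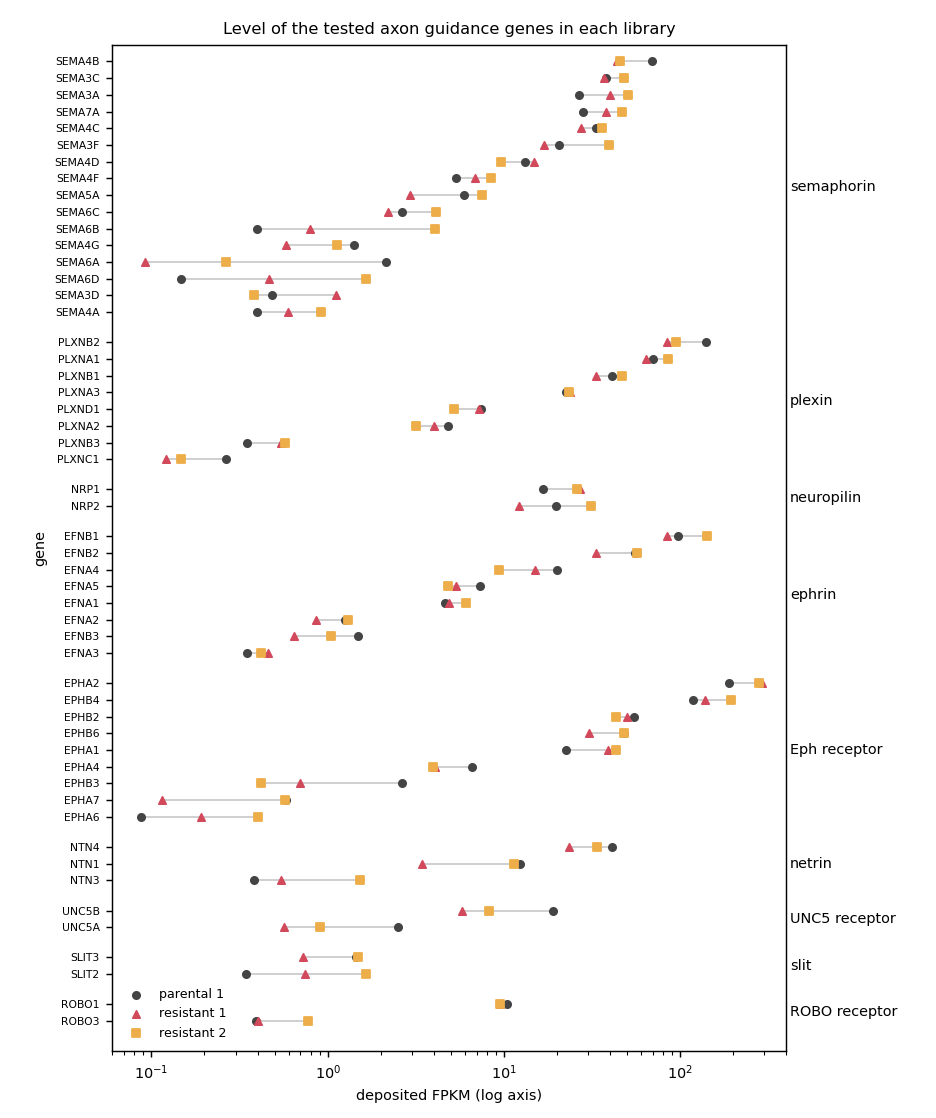
FPKM of the 52 tested genes (log x axis) in parental 1 (circles), resistant 1 (triangles) and resistant 2 (squares), grouped by family and ordered by mean level, with a grey line over the range of the 3 libraries. EPHA2 is the highest at 188.7 to 292.4 FPKM, and SEMA6A shows the widest gap below the parental clone, at 2.13 against 0.0918 and 0.266 FPKM.

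None of the 52 tested genes passed an adjusted p under 0.05 by edgeR's quasi-likelihood test (0.525% of all genes did), which was fitted on all 14846 genes with a mean of at least 10 reads. In that fit 20 genes (0.135%) rose and 58 (0.391%) fell. At an unadjusted p under 0.05, 3 of the 52 were higher and 4 lower in the resistant clones, where 4.84% and 4.78% of all tested genes were, and these 7 made up 13.5% of the 52, against 9.62%. By DESeq2 on the same genes none was called higher (0.822% of all genes) and 2 were called lower (0.849% of all genes), SEMA6A and UNC5B, against 1.67% of all genes in either direction. At an unadjusted p under 0.05 DESeq2 gave 8 of the 52, where 7.27% of all genes passed, namely 4 higher (3.82% of all) and 4 lower (3.46% of all). The single parental library shows no spread of its own and was assumed to vary like the resistant libraries, and this holds for every p-value here. The median log2 fold change of the 52 was -0.10, against 0.03 over all tested genes, with 24 genes above 0 and 28 below. Both resistant clones lay above the parental clone for 15 of the 52 (28.8%, against 35.2% of all tested genes) and below it for 20 (38.5%, against 34.5%). Both comparisons share the parental library. At least a 2-fold difference in both clones was reached upward by SEMA6D and SLIT2 (3.85%, against 4.4% of all genes) and downward by SEMA6A, EPHB3, UNC5A and UNC5B (7.69%, against 3.03%). By the authors' group means, 4 of the 52 were at least 2-fold higher in the resistant group (3.75% of all genes), SEMA6D, SEMA6B, SLIT2 and NTN3, and 4 were at least 2-fold lower (2.82% of all genes), SEMA6A, EPHB3, UNC5A and PLXNC1. UNC5B did not reach 2-fold on that scale.

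**Figure D2:**
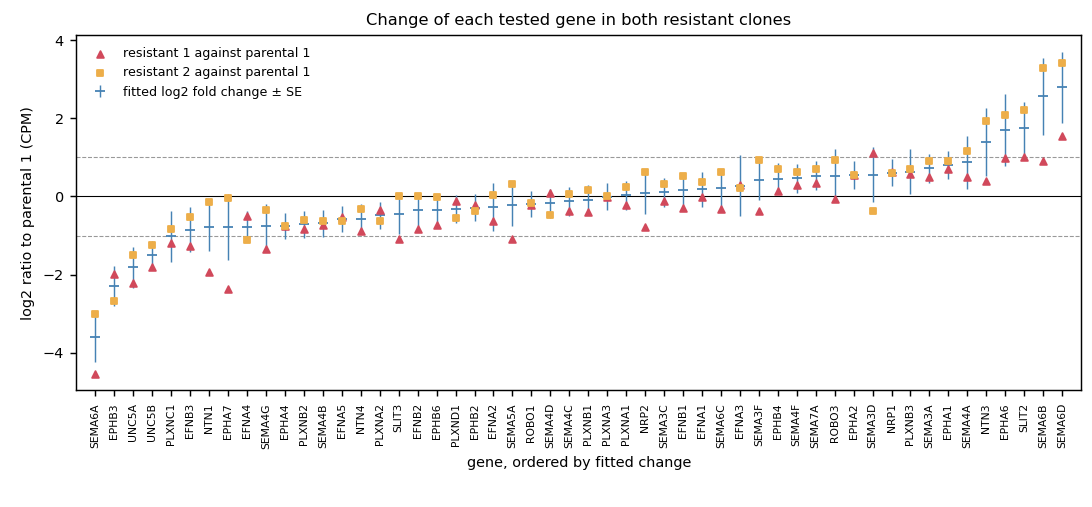
Log2 ratio to parental 1 of each tested gene in resistant 1 (triangles) and resistant 2 (squares), with the fitted log2 fold change and its SE in blue and dashed lines at 2-fold. SEMA6A, EPHB3, UNC5A and UNC5B lie below the lower line in both clones, while SEMA6D and SLIT2 lie above the upper line in both.

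SEMA6A (ENSG00000092421, chromosome 5, 115779312 to 115910630, minus strand) encodes a transmembrane semaphorin that signals through class A plexins. It had 212 reads in parental 1, 10 in resistant 1 and 32 in resistant 2, which is 15.0, 0.612 and 1.84 CPM after scaling by edgeR's TMM method. Both resistant clones were far below the parental clone, with a fitted log2 fold change of -3.60 ± 0.63 (SE). The adjusted p was 0.057 by edgeR's quasi-likelihood test, just outside the threshold. It was under 0.05 in all 4 other fits, from 1.4e-08 with no filter on low counts to 0.030 with a mean of at least 50 reads (edgeR), with 0.0010 by DESeq2. The authors' group means, which cover libraries beyond the 3 used here, were 196.4 normalized counts in the parental and 64.4 in the resistant group, a log2 ratio of -1.59. That resistant mean lies above the 10 and 32 reads of both clones used here, although the scales differ. A loss of this size is therefore not shown for the whole resistant group. The 6 tested genes within 1 Mb of SEMA6A had a median log2 fold change of -0.40, and those of chromosome 5 a median of -0.30.

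SEMA6D and SEMA6B, of the same class, were at the opposite end. SEMA6D (ENSG00000137872, chromosome 15, 47476298 to 48066420) had 13 reads in parental 1, 45 in resistant 1 and 176 in resistant 2, or 0.922, 2.75 and 10.1 CPM. Its log2 fold change was 2.80 ± 0.91 (SE), with an adjusted p of 0.35 by edgeR's quasi-likelihood test. SEMA6B (ENSG00000167680, chromosome 19, 4542600 to 4559820) had 23, 50 and 282 reads in the same order, or 1.63, 3.06 and 16.2 CPM, and a log2 fold change of 2.56 ± 0.98 (SE, edgeR adjusted p 0.44). Over the 4 other fits by edgeR and DESeq2 the adjusted p was 0.0038 to 0.27 for SEMA6D and 0.0035 to 0.38 for SEMA6B. For both genes the higher clone was resistant 2, and resistant 1 stayed nearer to the parental clone. The authors' group means gave log2 ratios of 1.54 for SEMA6D and 1.90 for SEMA6B. The 4 tested genes within 1 Mb of SEMA6D had a median log2 fold change of -0.20, and the 42 near SEMA6B a median of 0.14. SEMA6C, at 14.2, 11.3 and 21.7 CPM, had resistant clones on either side of the parental clone. The class 6 genes summed to 5.30 FPKM in parental 1, 3.56 in resistant 1 and 10.1 in resistant 2.

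The most abundant semaphorins belonged to classes 3, 4 and 7. SEMA4B, a transmembrane class 4 member, was the highest per length by its mean over the libraries, with 69.0 FPKM in parental 1 and 43.8 and 45.3 in the resistant clones, from 3801, 2640 and 3012 reads. In resistant 2 SEMA3A, SEMA3C and SEMA7A were above it, at 50.6, 48.3 and 46.5 FPKM. Both resistant clones were lower by a similar amount, and the log2 fold change was -0.69 ± 0.34 (SE, edgeR adjusted p 0.59). The 30 tested genes within 1 Mb of SEMA4B had a median log2 fold change of -0.60. SEMA3A, a secreted repellent that acts through neuropilin 1, had 154.3 CPM in parental 1 and 219.6 and 287.7 in the resistant clones, and SEMA7A, a membrane-anchored member that binds integrins and PLXNC1, had 112.1, 143.3 and 181.6. Their log2 fold changes were 0.72 ± 0.38 and 0.54 ± 0.36 (SE), and neither passed the test (edgeR adjusted p of 0.62 and 0.73). SEMA3C, at 202.4, 185.6 and 251.4 CPM, SEMA3F, at 80.0, 62.4 and 151.5, and SEMA4C, at 129.5, 100.7 and 136.4, had the resistant clones on either side of the parental clone. SEMA4D, which signals through PLXNB1, did so as well, at 77.3, 81.7 and 55.1 CPM. Of the lower class 4 members, SEMA4F stood at 23.6, 28.7 and 36.4 CPM, SEMA4A at 1.35, 1.90 and 3.05, and SEMA4G at 6.74, 2.63 and 5.30. SEMA4G overlaps MRPL43 on the other strand, which had 334 to 562 reads, and whether counting used the strand is not given in the sources used here.

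Among the receptors of semaphorins, PLXNB2 was the most abundant plexin, with 140.7 FPKM in parental 1, 84.2 in resistant 1 and 94.1 in resistant 2. PLXNB2 is a receptor for class 4 semaphorins, and its reads numbered 12998, 8515 and 10493. Both resistant clones were below the parental clone, at a log2 fold change of -0.71 ± 0.35 (SE, edgeR adjusted p 0.59), and its share of the summed FPKM of all 66 genes went from 10.9% to 6.82% and 6.16%. PLXNA3, a class A plexin on chromosome X, differed least between the libraries of the 52 tested genes, at 156.3, 154.2 and 158.1 CPM. PLXNA1, the second plexin by level, had 656.5, 559.2 and 778.5 CPM, and PLXNB1 had 307.0, 234.8 and 345.9, so that the resistant clones lay on either side of the parental clone in both genes. PLXNA2 and PLXND1, the latter a receptor of SEMA3E, were lower in both resistant clones, at 56.4, 44.5 and 36.3 CPM and at 54.0, 49.7 and 37.1 CPM. PLXNC1, the receptor of SEMA7A, was rare, with 28, 14 and 19 reads, and its log2 fold change was -1.02 ± 0.66 (SE). PLXNB3 had 32, 55 and 64 reads. None of the 8 tested plexins passed the test, the smallest edgeR adjusted p being 0.59.

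The neuropilins differed from each other in how the clones lay. NRP1, the co-receptor of SEMA3A, had 1427, 2531 and 2669 reads, or 101.2, 154.9 and 153.6 CPM, so that both resistant clones were higher and nearly equal. Its log2 fold change was 0.61 ± 0.35 (SE, edgeR adjusted p 0.67), and the authors' group means gave a log2 ratio of 0.64. NRP2, the co-receptor of SEMA3F and SEMA3C, had 135.7 CPM in parental 1, 78.6 in resistant 1 and 209.0 in resistant 2. Here the resistant clones lay on opposite sides of the parental clone and 1.41 apart on the log2 scale, and SEMA3F showed the same order of libraries, 1.28 apart.

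EPHA2, a receptor tyrosine kinase common in epithelial tumours, was the highest of all 66 genes, with 10830, 18358 and 19352 reads and 188.7, 292.4 and 279.6 FPKM. It ranked 236th of 29960 genes by FPKM in parental 1 and 130th and 131st in the resistant clones. Both resistant clones were above the parental clone by nearly the same amount, at log2 ratios of 0.55 and 0.54, but the difference did not pass the test (0.54 ± 0.36 SE, edgeR adjusted p 0.72). EPHA1 was likewise higher in both, at 77.6, 126.6 and 146.2 CPM (log2 fold change 0.81 ± 0.36 SE, edgeR adjusted p 0.52). EPHA4, which binds ephrins of both classes, was lower in both, at 42.7, 25.0 and 25.4 CPM (log2 fold change -0.76 ± 0.34 SE, edgeR adjusted p 0.53). The A receptors together summed to 218.5 FPKM in parental 1 and 335.8 and 327.9 in the resistant clones, and most of this sum was EPHA2. EPHA6 and EPHA7 had few reads, with 5, 12 and 28 and with 55, 12 and 66 reads.

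EPHB3 (ENSG00000182580, chromosome 3, 184279572 to 184300197), a B receptor known from the positioning of cells in the intestinal crypt, had 162 reads in parental 1, 47 in resistant 1 and 31 in resistant 2. These were 11.5, 2.88 and 1.78 CPM, so that both resistant clones were below the parental clone. The log2 fold change was -2.30 ± 0.52 (SE, edgeR adjusted p 0.13), with an adjusted p of 0.0015 to 0.096 over the 4 other fits by edgeR and DESeq2. The gene lies within the span that the deposited table gives for EIF2B5 on the same strand, which had 1159, 1730 and 1405 reads, and how reads were split between both genes is not given in the sources used here. The authors' group means of EPHB3 were 151.6 and 52.3 normalized counts, a log2 ratio of -1.52. The 26 tested genes within 1 Mb of EPHB3 had a median log2 fold change of 0.16. The other B receptors were far more abundant. EPHB4, the receptor of EFNB2 in vessel formation, had 117.7, 137.8 and 195.4 FPKM, EPHB2 54.7, 50.2 and 43.4, and EPHB6, a family member without kinase activity, 48.1, 30.5 and 48.3. None of these 3 passed the test, with log2 fold changes of 0.45 ± 0.40, -0.28 ± 0.35 and -0.34 ± 0.40 (SE).

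Of the ephrins, all 8 were tested and none passed, the smallest edgeR adjusted p being 0.62. EFNB1, a ligand of B receptors encoded on chromosome X, was the highest, with 4675, 4418 and 8268 reads and 97.5, 84.2 and 142.9 FPKM. EFNB2 followed with 55.5, 33.2 and 57.2 FPKM. In both genes resistant 1 was the lowest library and resistant 2 the highest, so the clones lay on either side of the parental clone. The membrane-anchored A ephrins were lower in level, and EFNA4 led them with 19.9, 14.9 and 9.43 FPKM. EFNA4 and EFNA5 were below the parental clone in both resistant clones, at log2 fold changes of -0.77 ± 0.41 and -0.58 ± 0.34 (SE). EFNA4 overlaps EFNA3 on the same strand, and the reads of EFNA3 (9, 13 and 13) may therefore be assigned with uncertainty. EFNA1, a main ligand of EPHA2, had 4.66, 4.88 and 6.13 FPKM while its receptor was at 188.7 to 292.4 FPKM. EFNA2 had 39, 29 and 49 reads and EFNB3 69, 33 and 59.

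Both tested UNC5 receptors had lower values in both resistant clones, and neither passed edgeR's test. UNC5B (ENSG00000107731, chromosome 10, 72972327 to 73062621), a netrin receptor of endothelial and epithelial cells, had 1884 reads in parental 1, 625 in resistant 1 and 977 in resistant 2. This corresponds to 133.6, 38.3 and 56.2 CPM, so the resistant clones were 3.49-fold and 2.37-fold lower. The log2 fold change was -1.50 ± 0.36 (SE), with an adjusted p of 0.16 by edgeR's quasi-likelihood test and 0.041 by DESeq2, and a range of 0.0043 to 0.12 over the 4 other fits. UNC5B-AS1, on the opposite strand within UNC5B, had 46, 9 and 5 reads, in the same direction, and without strand the reads of both cannot be separated. The 15 tested genes within 1 Mb had a median log2 fold change of -0.22, and those of chromosome 10 a median of 0.13. The authors' group means of UNC5B were 1255 and 650.8 normalized counts, a log2 ratio of -0.95. UNC5A (ENSG00000113763, chromosome 5, 176237478 to 176307897) had 138, 34 and 60 reads, or 9.78, 2.08 and 3.45 CPM. Its log2 fold change was -1.82 ± 0.52 (SE, edgeR adjusted p 0.27) and the ratio of the authors' group means -2.06, while the 36 tested genes within 1 Mb had a median of 0.18. The adjusted p of UNC5A was 0.035 to 0.41 over the 4 other fits by edgeR and DESeq2. UNC5C had 11, 8 and 5 reads and UNC5D at most 1 read, so the family's summed level of 21.6, 6.38 and 9.12 FPKM was nearly that of UNC5B.

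Their ligands, the netrins, were also below the parental clone for the most abundant members. NTN4, a netrin of basement membranes, had 2156, 1349 and 2143 reads and 41.2, 23.6 and 33.9 FPKM, with a log2 fold change of -0.57 ± 0.37 (SE, edgeR adjusted p 0.72). NTN1, the main ligand of DCC and UNC5 receptors, had 75.6 CPM in parental 1, 19.8 in resistant 1 and 68.0 in resistant 2. Resistant 1 was thus 3.82-fold below the parental clone and resistant 2 close to it, and the log2 fold change of -0.79 ± 0.60 (SE) did not pass the test (edgeR adjusted p 0.78). NTN3 was rare, at 11, 17 and 53 reads. DCC had no read in any library.

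SLIT2 (ENSG00000145147, chromosome 4, 20254883 to 20622184), a secreted repellent and ligand of ROBO receptors, had 32, 75 and 185 reads, or 2.27, 4.59 and 10.7 CPM. Both resistant clones were above the parental clone, resistant 1 by 2.01-fold and resistant 2 by 4.64-fold. The log2 fold change was 1.75 ± 0.67 (SE, edgeR adjusted p 0.45), and the authors' group means of 21.0 and 89.1 normalized counts gave a log2 ratio of 2.03. The adjusted p of SLIT2 was 0.14 to 0.54 over the 4 other fits by edgeR and DESeq2. With DESeq2 size factors resistant 1 no longer reached 2-fold. The 2 tested genes within 1 Mb had a median log2 fold change of 1.16, and chromosome 4 as a whole 0.43. SLIT3 had 203, 111 and 251 reads, at 14.4, 6.79 and 14.4 CPM, so that resistant 2 equalled the parental clone. ROBO1 carried nearly all of the receptor signal of this family, with 80.3, 69.1 and 71.3 CPM (log2 fold change -0.19 ± 0.33 SE, edgeR adjusted p 0.94), while ROBO3 had 26, 29 and 62 reads.

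**Figure D3:**
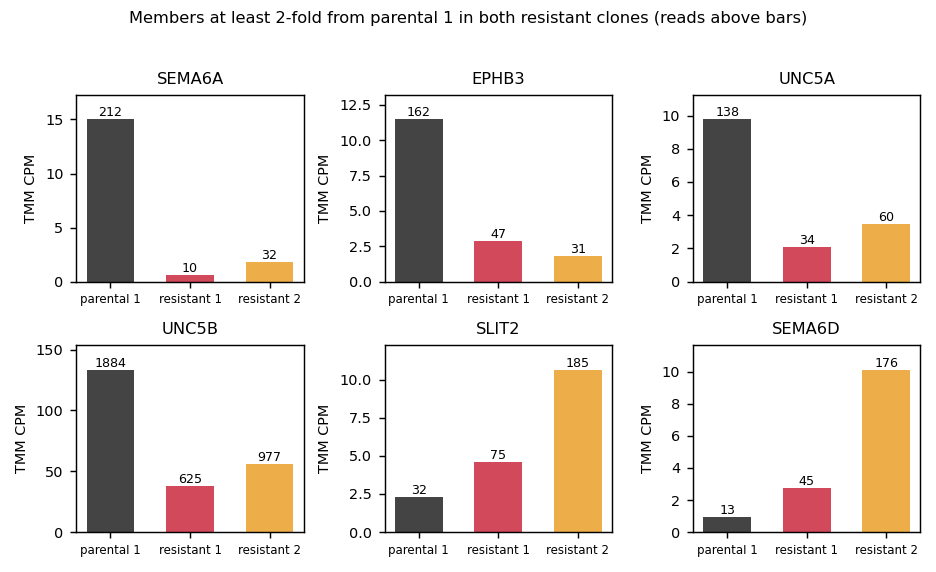
TMM-scaled CPM (y axis from 0) of the 6 genes that were at least 2-fold from parental 1 in both resistant clones, 1 bar per library with its reads above the bar. UNC5B reaches 133.6 CPM, while the highest value of the other 5 is 15.0 CPM, of SEMA6A in parental 1, and SLIT2 and SEMA6D are higher in resistant 2 than in resistant 1.

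The resistant clones also differed from each other. Of the 52 tested genes, 14 were at least 2-fold apart between resistant 1 and resistant 2 (26.9%, against 10.6% of all tested genes), and 13 of these were higher in resistant 2 (25.0%, against 6.92%). The exception (1.92%, against 3.63%) was SEMA3D, with 44 reads in parental 1, 111 in resistant 1 and 42 in resistant 2. The 13 were SEMA3F, SEMA4G, SEMA5A, SEMA6A, SEMA6B, SEMA6D, NRP2, EPHA6, EPHA7, NTN1, NTN3, SLIT2 and SLIT3. SEMA5A, a semaphorin with thrombospondin repeats, is an example at moderate level, with 1005, 543 and 1547 reads and 71.3, 33.2 and 89.1 CPM. Over the 52 genes the median log2 ratio of resistant 2 to resistant 1 was 0.52, and the median size of the difference was 0.57. The ratio to parental 1 had a median of -0.31 in resistant 1 and 0.05 in resistant 2, where those of all tested genes were 0.01 and 0.00. These are values of 1 library each and carry no test. Resistant 2 had reads on 23570 genes and resistant 1 on 21864, at 17461941 and 15836788 reads in total, and the part of this difference in the gap was not tested.

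**Figure D4:**
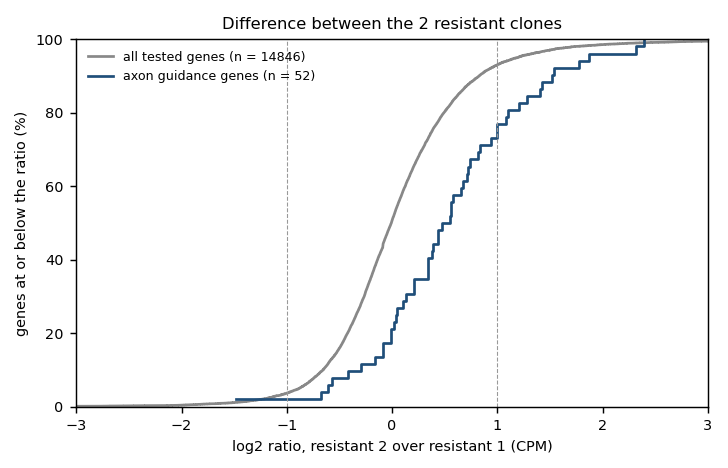
Cumulative share of genes (y axis, %) by the log2 ratio of resistant 2 to resistant 1 (x axis), for the 52 tested axon guidance genes (blue) and all 14846 tested genes (grey), with dashed lines at 2-fold. Above a ratio of -1 the blue curve runs to the right of the grey curve, with a median of 0.52, and 25.0% of its genes lie at or beyond 2-fold in favour of resistant 2.

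The rest of the pathway was read from a list of 103 other genes, among them co-receptors, adaptors and cytoskeletal effectors, of which 101 were in the table and 91 were tested. A single gene passed edgeR's test (adjusted p under 0.05), in the lower direction, where 0.391% of all tested genes passed. None passed in the other direction (0.135% of all). At an unadjusted p under 0.05 there were 5 higher and 9 lower, where 4.84% and 4.78% of all tested genes were. Those below 0.05 included 6 of 17 tested co-receptors and other cues, 4 of 28 adaptors and kinases and 1 of 23 cytoskeletal effectors. Of all tested genes 9.62% were below 0.05 in either direction. The list's median log2 fold change was -0.04. The gene was CXCL12, a chemokine that guides cells through CXCR4, with 164 reads in parental 1 and 0 in both resistant clones. Against a floor of 3 reads per library it fell at least 63.3-fold (edgeR adjusted p 0.0061), and its receptor CXCR4 had 1 to 3 reads. NTNG1, a membrane-anchored relative of the netrins named here after its values were seen, had 69, 344 and 460 reads and a log2 fold change of 2.28 ± 0.45 (SE, edgeR adjusted p 0.085), with 0.00095 to 0.054 over the 4 other fits by edgeR and DESeq2. The most abundant genes of the list showed smaller differences. CFL1, which cuts actin filaments, had 567.0, 435.4 and 360.7 FPKM, and PFN1, which feeds actin growth, had 316.1, 517.8 and 454.9. Of the co-receptors, GPC1, a glypican that binds slits, had 161.3, 144.4 and 145.8 FPKM, ITGB1 135.0, 126.2 and 121.0, and MET, which associates with B plexins, 64.7, 95.1 and 104.3. None of these 5 passed the test.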

How the data were processed

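RNA of 3 labelled libraries was analysed, 1 parental and 2 resistant. Polyadenylated RNA was sequenced for the authors by Novogene. The submitters' processing notes name CASAVA 1.8 and hg19, whose coordinates are given for genes. The aligner, the counting tool and the use of strand are not given in the sources used here. The authors deposited raw read counts per gene and library, FPKM values per library, and group signal columns, which are their mean normalized counts. Their fold changes and p-values were not used, nor were 6 columns of libraries without a label here.

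Genes with a mean count of at least 10 were tested with edgeR 4.0.16 (R 4.3.3; TMM, glmQLFit, glmQLFTest) and p-values adjusted by Benjamini-Hochberg over all genes tested. With 1 residual degree of freedom the spread comes from the resistant libraries, which may be technical or clonal. The SE is the log2 fold change divided by the root of F. Ratios of single libraries used a prior of 0.5 counts. A count of 3 was the floor, which covers counting error only and corresponds to 0.213, 0.184 and 0.173 CPM. The code was tested on simulated data. Members and lists were chosen with earlier results of these data known. A group of genes within the pathway list is not reported here on its own. The 24 genes chosen by rule were those at least 2-fold from the parental library, in the same direction, in both resistant libraries. To these were added the highest of each family by FPKM and those whose resistant libraries differed at least 2-fold. Not all of the 24 are given with a log2 fold change, and some genes outside this set are. The other members are described with their family. Alternatives were DESeq2 1.42.0, its size factors, other filters, a threshold of 0.1, leaving out each resistant library and, for ratios, the authors' group means with a pseudocount of 1.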

Additional observations from a re-analysis of the deposited data

How the results depend on the processing

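With 1 parental library and 1 residual degree of freedom, counts of calls moved with the fit. Higher genes numbered 20 and lower genes 58 by edgeR, and 122 and 126 by DESeq2, 46 and 99 with DESeq2 size factors, 273 and 261 with no filter on low counts, 48 and 65 with a mean count of at least 50, and 63 and 106 at an adjusted p under 0.1. Of the axon guidance genes none was called, against 2 lower by DESeq2, 1 lower each with DESeq2 size factors, with a mean of at least 50 and at 0.1, and 2 higher and 4 lower with no filter. The other pathway genes called went from 1 to 4 by DESeq2, 6 with no filter and 2 at 0.1. For EPHB3, SEMA6D, SEMA6B and UNC5A the adjusted p was under 0.05 only in the fit with no filter on low counts. The low ends of their ranges given above come from that fit. The cause of these shifts was not tested.

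Genes at least 2-fold higher in both clones went from 2 to 1 with DESeq2 size factors, 4 with no filter and 4 by the authors' group means, an alternative chosen after seeing the data. Leaving out a resistant library gave 3 to 6 higher and 5 to 11 lower genes, 11 without resistant 2 and 6 higher without resistant 1. Here only the remaining clone had to reach 2-fold, so these counts could not fall below those for both clones. The authors' group means likewise give a single pooled ratio and do not ask for both clones. The median log2 fold change of -0.10 turned to 0.0034 with no filter, where that of all genes was 0.12, and ranged from -0.31 to 0.052 when a resistant library was left out.

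Of the 24 genes chosen by rule, 17 kept their sign under each alternative and 7 did not. The rule fixes part of this tally. Genes chosen for a 2-fold difference in the same direction in both clones cannot change sign when either clone is left out. Those chosen because the clones differed are more open to a change of sign. Without a resistant library EFNB1 ranged from -0.29 to 0.52, NRP2 from -0.79 to 0.62, SEMA3D from -0.36 to 1.12, SEMA3F from -0.36 to 0.92, SEMA5A from -1.10 to 0.32 and SLIT3 from -1.08 to 0.0057. By the authors' group means ROBO1 was at 0.063, SEMA3D at -0.21 and SLIT3 at 0.15. No paired analysis was made, because the study describes the clones as derived independently and no source pairs a parental clone with a resistant one.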
